A study of Mus musculus with 36 samples.

Results

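Type I interferon stimulated antiviral genes were followed across 12 groups of mouse myeloid cells profiled on 36 one-colour arrays, 3 arrays a group. The list holds 36 genes, targets of type I interferon with antiviral functions, and each gene was looked up by its symbol in the annotation of the arrays. Of these 36 genes, 33 were found under their own symbol and tested among 17593 genes. Xaf1 and Ddx60 are named only. Dhx58 was found by its transcript accession under an older locus name, and its values are given separately and stay outside every count.

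All cells came from Mus musculus; strain, age and genotype are not given in the sources used here. The starting monocytes were bone marrow cells sorted as Ly6C+ Ly6G- CD11b+ and profiled without culture (Monocytes). One set of cultures grew these monocytes for 6 days with 20 ng/ml M-CSF, the macrophage growth factor, and 10% fetal calf serum (FCS). After a further 24 h these macrophages had received no stimulus (M0), 25 ng/ml IFN-γ (IFN-γ macrophages), 25 ng/ml IFN-γ with 100 µg/ml LPS (M1), 20 ng/ml IL-4 (M2a), IFN-γ at 25 ng/ml on dishes coated with human immunoglobulin (M2b), or dexamethasone (M2c). The regulatory macrophage (Mreg) culture contained 10% human AB serum in addition to 10% FCS and a lower M-CSF dose of 5 ng/ml, so that it differed from the M-CSF culture both in M-CSF dose and in serum. Its groups received no stimulus (Mreg without IFN-γ), 25 ng/ml IFN-γ (Mreg), or IFN-γ and 100 µg/ml LPS (Mreg with LPS). A further Mreg group with IFN-γ was grown from unsorted adherent mononuclear cells of bone marrow, spleen and blood (unsorted Mreg). Mo-DC were grown from the sorted monocytes with 20 ng/ml GM-CSF and 20 ng/ml IL-4 and then given 25 ng/ml IFN-γ. Whether the replicate arrays stand for separate mice is not given, so every p-value measures only the spread between these samples.

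Type I interferons, such as interferon β, are secreted by cells that sense microbial nucleic acid or LPS. They signal through the receptor chains Ifnar1 and Ifnar2 to a transcription factor complex that includes Stat2 and Irf9 and binds the interferon-stimulated response element (ISRE) in the promoters of antiviral genes. IFN-γ uses a separate receptor and acts mainly at another element, the gamma-activated site (GAS), and the products of both programmes overlap. In macrophages a low tonic level of type I interferon keeps part of the antiviral programme switched on without infection.

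The ISRE was read in the promoters of the members, because the groups below move most of these genes together. RefSeq promoters (build GRCm38.p6) were available for 24 of the 33 members, and the 250 bases before each annotated start were searched on both strands. The ISRE was searched as GAAA, any 2 bases and GAAA again, and the GAS as TTC, any 3 bases and GAA. At least 1 ISRE match lay in 10 of 24 members (41.7%), against 3.46% of the 27025 genes in the table and 2.98% of all 32851 promoters of the same length. A GAS match lay in 5 of 24 members (20.8%), against 8.13% of genes and 7.02% of promoters. In the whole 300 bases held for each promoter, 14 of 24 members (58.3%) had an ISRE match, against 3.99% of genes. A GAS match lay in 7 (29.2%) there, against 9.55% of genes. All that follows uses the 250 bases. The 10 with an ISRE match were Ifit1, Ifit3, Isg15, Oas1a, Oas3, Rsad2, Bst2, Trim30, Ifi203 and Ifi205; in Bst2 one ISRE match overlapped a GAS match. Shown are 5 members that hold a match and rise with LPS in both cultures. They are followed by the first annotated start of Isg20, whose pattern departs most from the rest and whose windows hold no ISRE match. Each is written 5′ to 3′ on the strand of the gene, and capitals mark the ISRE match on either strand.
Ifit1, chr19:34640639-34640888, plus strand: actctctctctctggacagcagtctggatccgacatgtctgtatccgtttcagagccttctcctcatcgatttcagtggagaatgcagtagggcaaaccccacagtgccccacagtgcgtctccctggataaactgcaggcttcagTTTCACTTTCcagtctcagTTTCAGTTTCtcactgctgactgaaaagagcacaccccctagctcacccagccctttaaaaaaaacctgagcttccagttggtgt
Ifit3, chr19:34583279-34583528, plus strand: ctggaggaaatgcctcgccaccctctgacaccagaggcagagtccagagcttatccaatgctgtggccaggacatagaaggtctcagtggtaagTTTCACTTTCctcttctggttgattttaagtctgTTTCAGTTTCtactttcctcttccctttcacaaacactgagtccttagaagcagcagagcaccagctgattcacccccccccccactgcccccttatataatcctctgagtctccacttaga
Isg15, chr4:156200819-156201068, minus strand: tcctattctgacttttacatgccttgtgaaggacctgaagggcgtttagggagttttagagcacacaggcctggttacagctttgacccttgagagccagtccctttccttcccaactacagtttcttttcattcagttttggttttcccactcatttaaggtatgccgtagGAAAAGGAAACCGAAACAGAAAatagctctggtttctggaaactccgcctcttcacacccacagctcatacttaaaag
Rsad2, chr12:26456453-26456702, minus strand: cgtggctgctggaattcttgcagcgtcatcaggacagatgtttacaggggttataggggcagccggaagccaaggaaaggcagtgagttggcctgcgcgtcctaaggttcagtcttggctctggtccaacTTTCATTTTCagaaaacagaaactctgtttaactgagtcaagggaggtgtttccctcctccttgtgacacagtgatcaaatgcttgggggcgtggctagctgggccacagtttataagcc
Oas1a, chr5:120907526-120907775, minus strand: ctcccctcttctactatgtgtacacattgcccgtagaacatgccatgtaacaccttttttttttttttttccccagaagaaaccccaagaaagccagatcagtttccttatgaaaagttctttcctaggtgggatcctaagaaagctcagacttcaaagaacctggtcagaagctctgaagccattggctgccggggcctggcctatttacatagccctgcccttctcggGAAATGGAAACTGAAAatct
Isg20, chr7:78913174-78913423, plus strand: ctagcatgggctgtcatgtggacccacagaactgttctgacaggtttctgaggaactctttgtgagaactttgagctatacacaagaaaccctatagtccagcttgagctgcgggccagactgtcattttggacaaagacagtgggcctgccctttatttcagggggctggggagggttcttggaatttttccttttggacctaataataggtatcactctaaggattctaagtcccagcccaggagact
Ifit1 and Ifit3 lie close to each other on chromosome 19 and each hold 2 separate matches. In Isg15 a single run holds 3 overlapping matches, and in Oas1a a single run with 2 overlapping matches ends 4 bases before the annotated start. A match is a description of these letters and not evidence of binding. Members with and without a match in the 250 bases rose with LPS: Isg20, without one, rose most in both cultures. Ifit2, also without one, rose by 4.57 log2 units in the Mreg culture. Ifi203 holds a match and did not pass with LPS in either culture.

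Levels are given as log2 of the processed array signal relative to the 75th percentile of the same array, so 0 stands for that percentile. Of the 33 members, 31 were well above background on all 36 arrays. Ifi44 was above it on 33 arrays, missing it on all 3 of Mreg without IFN-γ. Ifi205 was above it on 35 arrays. In Monocytes only 2 arrays gave Ifi205 a value, both above background. The members spanned wide ranges over the 12 group means, from 6.92-fold (Trim25) to 787-fold (Ifit1) among those above background in every group, with a median of 36.9-fold over all 33, where the median of all genes was 3.95-fold. Because the arrays read RNA of whole cultures, fewer cells of a type and less RNA per cell cannot be told apart.

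**Figure D1:**
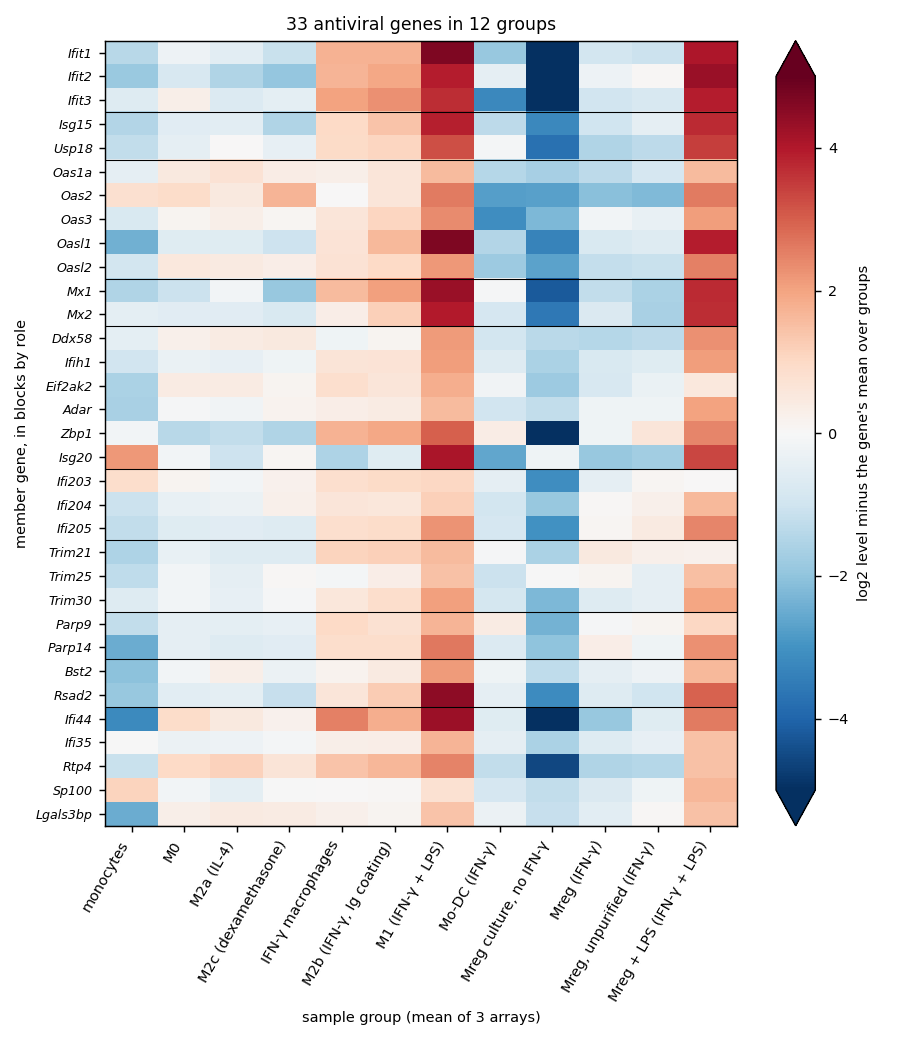
Heat map of the 33 members (rows, ordered by role) in the 12 groups (columns), where colour is the group mean in log2 units minus the mean of that gene over the groups (3 arrays a group). The M1 and Mreg with LPS columns are the high ones and Mreg without IFN-γ is the low one, apart from Isg20 and a few others.

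To rank the groups, each member was centred on its mean over the 12 groups and the 33 values of an array were averaged. This mean level was 2.63 ± 0.13 (SD, n = 3) in M1 and 2.32 ± 0.12 (SD, n = 3) in Mreg with LPS, without overlap of their arrays. M2b followed at 0.97 ± 0.08 (SD, n = 3) and IFN-γ macrophages at 0.74 ± 0.11 (SD, n = 3). M0, M2a and M2c, at -0.14, -0.22 and -0.29, overlapped one another. Unsorted Mreg, Mreg, Mo-DC and Monocytes, at -0.58, -0.72, -0.97 and -1, overlapped as well. Unsorted Mreg also overlapped M0, M2a and M2c, Mreg overlapped M2c, and Monocytes overlapped M0, M2a and M2c. The 3 monocyte arrays ranged from -1.68 to -0.37. Mreg without IFN-γ lay lowest at -2.73 ± 0.24 (SD, n = 3), and its highest array, at -2.53, was clear of the lowest array of any other group. M1 was the highest group for 20 members and Mreg with LPS for 13. Mreg without IFN-γ was the lowest group for 24 members, Monocytes for 5, Mo-DC for 3 and Mreg for 1.

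**Figure D2:**
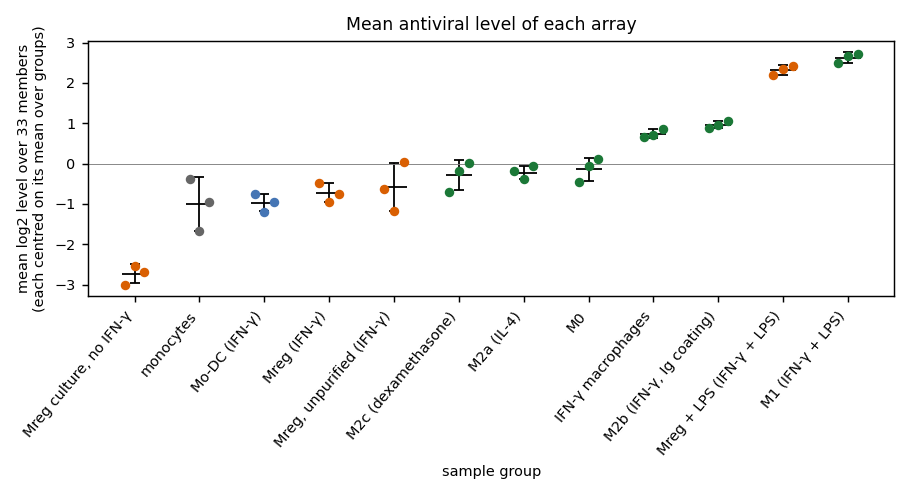
Mean level of the 33 members on each of the 36 arrays (points, log2 units centred per gene), with groups sorted by their mean (bar) and SD (whisker). The arrays of M1 and Mreg with LPS lie between 2.19 and 2.73 and those of Mreg without IFN-γ between -3 and -2.53.

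Most members shared this order. Across the 12 group means, the correlation of a member with the mean of the other members ran from 0.56 for Isg20, 0.68 for Ifi203 and 0.71 for Sp100 up to 0.99 for Ifit1 and Trim30; all points share the same arrays and scaling, and the values are a description.

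IFN-γ given for the last 24 h to the Mreg culture raised 27 of the 33 members and lowered Isg20, and 5 members did not pass the test (adjusted p below 0.05 in limma, adjusted over all genes). Among all genes 20.4% passed in this comparison, 9.51% as higher and 10.9% as lower. The median member differed by 2.11 log2 units, against -0.064 over all genes. The 3 IFIT genes, which encode proteins that bind viral RNA lacking host cap marks, all rose, as did both Mx genes, whose products are dynamin-like GTPases that trap viral particles, and the 3 HIN-200 genes of DNA-binding proteins.

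Zbp1 encodes a sensor of left-handed nucleic acid that can start cell death, and its rise was the largest among the members above background in both groups. Its log2 level was -1.92, -2.01 and -1.47 without IFN-γ and 4.22, 3.04 and 3.61 with it. The groups did not overlap, and the fitted rise was 5.42 ± 0.31 log2 units (SE), or 42.9-fold (adjusted p = 5.8e-13). Ifit3 stood at -2.45, -1.59 and -1.71 without IFN-γ and at 2.51, 2.27 and 2.57 with it, a 20.6-fold rise with no overlap (log2 4.36 ± 0.53 SE, adjusted p = 8.5e-07). Ifit2 rose 28-fold and Ifit1 16.4-fold. Ifi44, a cytoplasmic protein that restrains virus replication, read -5.81, -5.44 and -5.72 without IFN-γ, where none of the 3 arrays had its probe well above background, and 0.28, -2.19 and -1.34 with it. It rose at least 23.8-fold (adjusted p = 3.3e-05), and at least 14.9-fold without Mreg replicate 1, while its other probe gave a log2 difference of 2.13. Under normexp background correction its difference was 1.55 log2 units and missed the threshold (adjusted p = 0.058). Ifi205 rose 8.87-fold and Rtp4, a chaperone-like interferon target, 8.14-fold.

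Isg15 encodes a ubiquitin-like modifier that is attached to other proteins, and Usp18 the protease that removes it and dampens the interferon receptor; they rose 4.64-fold and 4.78-fold. The OAS family includes enzymes that sense double-stranded RNA and activate RNase L. Of its 5 genes here, Oasl1 (6-fold), Oas3 (4.31-fold) and Oasl2 (2.83-fold) rose. Oas1a (log2 0.38, adjusted p = 0.36) and Oas2 (0.61, adjusted p = 0.48) did not pass. For Oas3 the log2 difference was 2.11, and 0.77 on its other probe. Rsad2, the radical SAM enzyme viperin, rose 5.7-fold and Bst2, the tetherin that holds budding virions at the membrane, 1.79-fold. Ddx58, which encodes the RNA sensor RIG-I, did not pass (log2 -0.07), nor did its ubiquitin ligase Trim25 (0.15) or the RNA-editing enzyme Adar (1.04, adjusted p = 0.17).

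In the M-CSF culture IFN-γ raised 17 members and lowered Isg20, and 15 did not pass; 22.2% of all genes passed, 11.1% as higher and 11.2% as lower. Higher genes made up 49.7% of all calls, and 61.7% when arrays were scaled to their medians. The median member differed by 0.93 log2 units, against -0.012 over all genes. All 17 members that rose here also rose in the Mreg culture, and Isg20 fell in both. The 3 IFIT genes rose (Ifit2 5.6-fold, Ifit1 4.07-fold and Ifit3 3.27-fold), and none of the 5 OAS genes passed, with Oas2 at log2 -0.9 (adjusted p = 0.24) and Oasl1 at 1.27 (adjusted p = 0.058).

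Zbp1 also led here. It read 1.92, 2.65 and 2.72 in M0 and 5.45, 5.62 and 5.63 in IFN-γ macrophages, a rise of 8.8-fold without overlap (log2 3.14 ± 0.31 SE, adjusted p = 1.8e-08). Mx1 went from -0.37, 0.06 and 0.74 to 2.6, 2.55 and 3.2, 6.22-fold (log2 2.64 ± 0.5 SE, adjusted p = 0.00023). Ifit3 started at 2.92, 4.05 and 4.23 and reached 5.23, 5.47 and 5.63, so it began in M0 above the level it reached in Mreg with IFN-γ. Its call was lost without M0 replicate 1 (log2 1.3, adjusted p = 0.14), and without replicate 2 or 3 of the IFN-γ macrophages (adjusted p = 0.054 and 0.065). M0 and the IFN-γ macrophages were hybridised on different slides within each series, whereas all 4 Mreg groups of a series shared a slide.

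**Figure D3:**
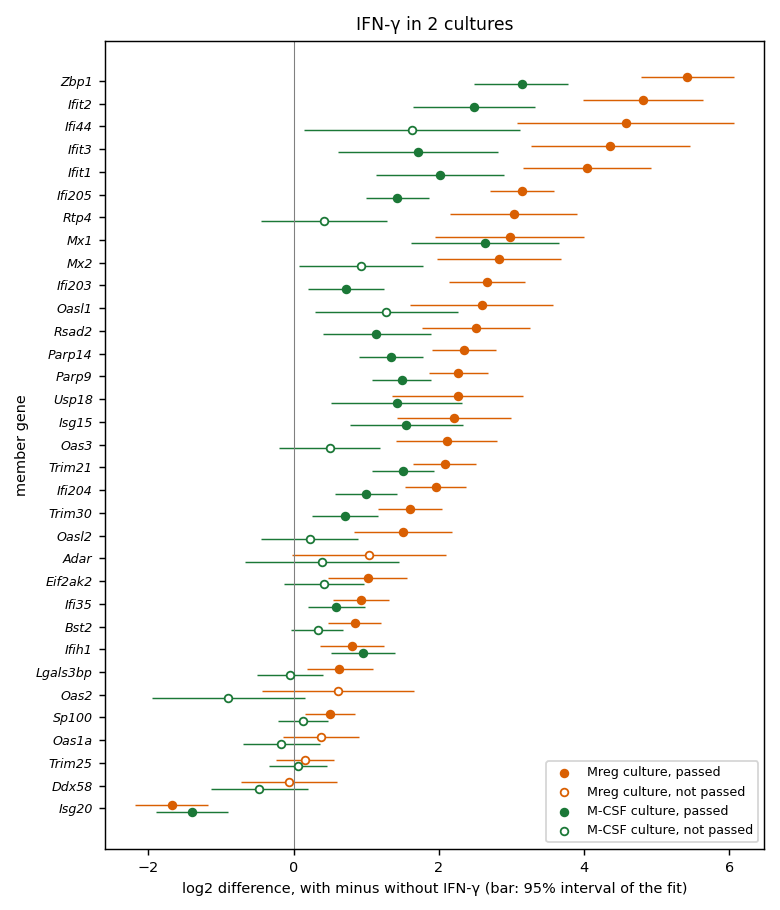
Log2 difference with IFN-γ for each of the 33 members in the Mreg culture and in the M-CSF culture, with the 95% interval of the fit; filled points passed the test. Differences lie further to the right in the Mreg culture for most members, and Isg20 lies left of 0 in both, at -1.68 and -1.4.

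Whether the response itself differed was tested as the difference of both differences. It was larger in the Mreg culture for 5 members: Rtp4 (2.6 ± 0.6 log2 units, SE, adjusted p = 0.024), Ifit2 (2.32 ± 0.57, adjusted p = 0.034), Zbp1 (2.29 ± 0.44, adjusted p = 0.007), Ifi203 (1.94 ± 0.36, adjusted p = 0.0046) and Ifi205 (1.71 ± 0.3, adjusted p = 0.0033). Among all genes 1.65% passed and 1.19% passed as larger in the Mreg culture. The estimate was above 0 for 31 of 33 members, with a median of 0.89 against -0.056 over all genes, and the 28 members that did not pass included Ifit3 at 2.65 (95% interval from 1.1 to 4.21, adjusted p = 0.075). With the series number as a replicate block 8 members passed, now also Ifit3, Mx2 and Parp14, while 1 passed under normexp background correction, 1 on the arrays of scan day 1 and 3 with the mean of all probes; this blocked fit is shown because same-numbered samples deviated together in both IFN-γ comparisons. Leaving out single arrays gave 3 to 6 calls: Ifit2 and Rtp4 each lost the call without replicate 1 or 2 of the IFN-γ macrophages, 2 or 3 of M0, 1 or 3 of Mreg, or 1 of Mreg without IFN-γ, and Ifit2 also without replicate 3 of the IFN-γ macrophages or of Mreg without IFN-γ.

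Without any stimulus the members were far lower in the Mreg culture than in the M-CSF culture. Of 33 members 30 were lower, each by at least 2-fold, and only Adar, Isg20 and Trim25 did not pass; 30.9% of all genes passed and 13.7% passed as lower. The median member was lower by 5.22-fold (log2 -2.38, against 0.057 over all genes). All 3 IFIT, all 5 OAS, both Mx and all 3 HIN-200 genes were lower.

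Ifi44 differed most. It read 1.78, 1.67 and 1.68 in M0 and, on a probe not well above background, between -5.81 and -5.44 in Mreg without IFN-γ, so it was at least 165-fold lower on this probe (adjusted p = 2e-08); the other probe of Ifi44 gave a log2 difference of -3.78. Ifit3 was 50.1-fold lower, its M0 values running from 2.92 to 4.23 and its values in Mreg without IFN-γ from -2.45 to -1.59 (log2 -5.65 ± 0.53 SE, adjusted p = 1.1e-08). Rtp4 read 5.95, 6.26 and 6.32 in M0 against -0.26, 1.34 and 0.83, 46.5-fold lower (log2 -5.54 ± 0.42 SE, adjusted p = 4.1e-10). Ifit1 was 25.8-fold, Ifit2 19.3-fold and Zbp1 18.8-fold lower. Among the enzymes, Oas2 was 12.3-fold and Usp18 9.78-fold lower. Isg15 was 6.32-fold and Rsad2 6.08-fold lower. At the small end stood Sp100, a nuclear body protein (2.14-fold), Bst2 (2.2-fold) and Trim21, a cytosolic antibody receptor (2.33-fold).

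Trim25 and Isg20 showed no such gap. Trim25 read 4.49, 4.7 and 4.76 in M0 and 4.83, 4.83 and 4.7 in Mreg without IFN-γ (log2 difference 0.14, 95% interval from -0.26 to 0.54). Isg20 differed by -0.07 log2 units (95% interval from -0.57 to 0.42). Dhx58, which encodes the RIG-I relative LGP2, was read through its older name and was 3.2-fold lower (log2 -1.68 ± 0.23 SE, adjusted p = 2.2e-06).

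With IFN-γ in both cultures the gap narrowed but 27 members were still lower in Mreg than in IFN-γ macrophages, the same 27 being among the 30 above; 28% of all genes passed and 14% passed as lower. Higher genes made up 50% of all calls here, and 38.3% when arrays were scaled to their medians. The median member was 2.36-fold lower (log2 -1.24, against 0.004 over all genes). Ifi44 was 21.4-fold lower (log2 -4.42 ± 0.72 SE, adjusted p = 3.6e-05), 34.3-fold without Mreg replicate 1, Ifit3 7.97-fold (log2 -2.99 ± 0.53 SE, adjusted p = 0.0001) and Rtp4 7.65-fold. Mx1 was 6.9-fold, Ifit1 6.38-fold and Usp18 5.46-fold lower. Not past the test were Mx2 (log2 -1.09, adjusted p = 0.052), Oas3, Parp14, Adar, Isg20 and Trim25. Ifit3 illustrates the order of the groups: the 3 Mreg values, 2.27 to 2.57, lay below the 3 unstimulated M0 values, 2.92 to 4.23. The groups of this comparison and of the one without IFN-γ share no arrays.

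With IFN-γ and LPS the members stood close in both cultures. Of 33 members 8 were lower and Sp100 was higher in Mreg with LPS than in M1, and 24 did not pass, while 54.5% of all genes passed, 29.4% as higher and 25.1% as lower. The median member differed by -0.27 log2 units, against 0.047 over all genes. Rsad2 read 8.07, 8.42 and 8.39 in M1 and 6, 7.33 and 7.06 in Mreg with LPS. On this probe it was 2.83-fold lower (log2 -1.5 ± 0.36 SE, adjusted p = 0.0009). With the mean of all its probes it differed by -0.26 and did not pass. Its other probes each gave 0.36, so its direction depends on the probe. Trim21 was 2.55-fold and Eif2ak2, the kinase PKR that halts translation, 2.49-fold lower. The others that were lower were Rtp4 (2.04-fold), Ifi203 (2.01-fold), Isg20 (1.67-fold), Parp9 (1.59-fold), a partner of an ubiquitin ligase, and Bst2 (1.4-fold). Rtp4 lost its call in turn without each array of M1 and without replicate 1 or 2 of Mreg with LPS, Isg20 without M1 replicate 3 or Mreg with LPS replicate 1, and Bst2 without M1 replicate 2 or 3 or Mreg with LPS replicate 1. Ifit3 read 6.4, 7.37 and 7.53 in M1 and 6.42, 7.62 and 7.97 in Mreg with LPS, overlapping, with a difference of 0.24 (95% interval from -0.86 to 1.34). Of all members, 7 were lower in the Mreg culture in each of the 3 conditions, as were 5.64% of all genes. Rsad2 is among these 7 on the probe used. Other probes of Sp100 read from -0.5 to 1.14 in this comparison, so its direction depends on the probe.

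**Figure D4:**
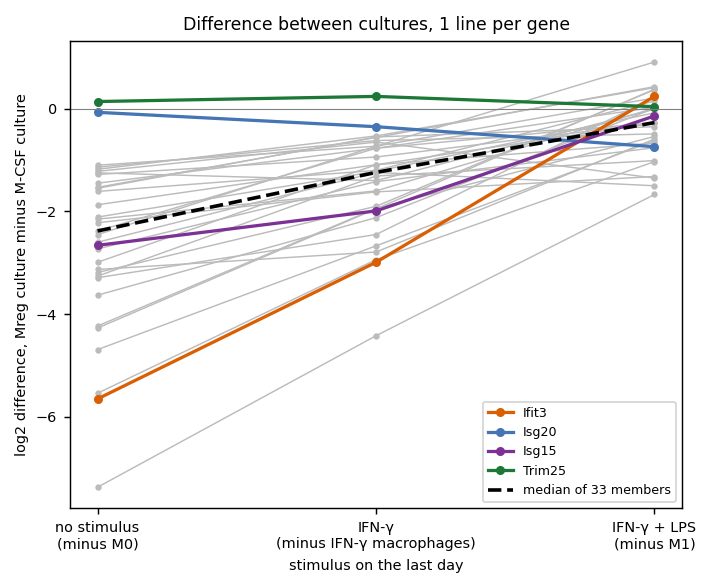
Log2 difference between the Mreg culture and the M-CSF culture for each of the 33 members (1 line a gene) without stimulus, with IFN-γ, and with IFN-γ and LPS; the dashed line is the median of the members. The median runs from -2.38 over -1.24 to -0.27, and Trim25 and Isg20 begin near 0.

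Values of other kinds stand beside these gaps. The 4 Mreg groups shared slides that held no group of the M-CSF culture, so slide and culture cannot be told apart by design. The markers of macrophages were all well above background in each of the 6 groups, with summed linear levels of 1130 to 1220 in M0 and 1130 to 1170 in Mreg without IFN-γ (1 being the 75th percentile of an array). The summed level of 5 genes that mark Ly6C-high monocytes was 16.5 to 35.4 in M0 and 4.17 to 19.3 in Mreg without IFN-γ, and 276 to 296 in IFN-γ macrophages and 48.8 to 210 in Mreg. Of those 5 genes 4 were lower in Mreg without IFN-γ than in M0, with all 5 well above background in all these groups. The exception, F13a1, made up most of the sum in Mreg without IFN-γ. It read 4.23, 1.86 and 3.83 there and 2.21, 1.7 and 1.47 in M0. The sums with IFN-γ were mostly Ly6c1, which itself rose with IFN-γ. It went from 2.95, 4.14 and 4.59 to 7.94, 7.85 and 7.74 in the M-CSF culture. In the Mreg culture it went from -2.11, -1.56 and -0.99 to 7.68, 5.56 and 7.17. For plasmacytoid dendritic cells, which make much type I interferon, 6 of 7 markers were measured, of which none was higher and 1 was lower in Mreg without IFN-γ than in M0. Their summed level, 18.7 to 22 in M0 and 22 to 38.1 in Mreg without IFN-γ, was mostly that of Cox6a2, with Ccr9 at a log2 level of -5.25 or below in M0 and -4.17 or below in Mreg without IFN-γ. The part of these cells in the gaps was not tested.

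LPS added to IFN-γ raised 31 of 33 members in the Mreg culture, where 57.4% of all genes passed and 32% passed as higher. Calls as higher were 55.7% of the total, and 45.5% after quantile normalization. The median member rose 7.22-fold (log2 2.85, against 0.168 over all genes), and each of the 31 rose by at least 2-fold. Isg20 encodes an exonuclease that degrades viral RNA, and it rose most. It stood at -2.11, -2.36 and -1.97 with IFN-γ alone and at 2.64, 3.13 and 3.53 with LPS, 37.9-fold higher without overlap (log2 5.24 ± 0.24 SE, adjusted p = 1.6e-15). Ifit1 rose 31.1-fold (log2 4.96 ± 0.43 SE, adjusted p = 1.7e-10), Mx1 30.7-fold, Usp18 30.3-fold and Ifit3 29.7-fold. Isg15 rose 26.8-fold, from 2.93, 2.02 and 2.38 to 7.27, 7.1 and 7.19. All 5 OAS genes rose, from 4.74-fold for Oas3 to 25.8-fold for Oas2, and Ddx58, which IFN-γ had not moved, rose 13.1-fold. Trim21 (log2 -0.25, adjusted p = 0.31) and Ifi203 (0.5, adjusted p = 0.094) did not pass.

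In the M-CSF culture LPS also raised 31 of 33 members, with Ifi203 (log2 0.2) and Trim21 (0.45) again not past the test; 51.2% of all genes passed and 27.9% passed as higher. The median member rose 2.94-fold (log2 1.56, against 0.124 over all genes). Isg20 rose most here too, from -1.85, -1.93 and -1.6 to 3.49, 3.88 and 4.14, 49.6-fold (log2 5.63 ± 0.24 SE, adjusted p = 8.6e-16). Oasl1 rose 16.1-fold, Rsad2 14.5-fold and Mx2 12.2-fold, while Ifit3 rose 3.15-fold, and 2.7-fold was reached by Oasl2. Without M1 replicate 3 the rise of Ifit3 missed the threshold (log2 1.44, adjusted p = 0.052). No slide held both M1 and IFN-γ macrophages.

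The LPS response was larger in the Mreg culture for 19 members and did not differ past the test for 14, and 35% of all genes passed (18.5% as larger in the Mreg culture). The median was 0.99, against 0.042 over all genes. Mreg and Mreg with LPS shared slides, whereas M1 and IFN-γ macrophages did not, so differences between slides can enter the M-CSF part only. Ifit3 led with 3.24 ± 0.76 log2 units (SE, adjusted p = 0.0014), followed by Ifi44 (2.75 ± 1.02, adjusted p = 0.038), Usp18 (2.67 ± 0.62, adjusted p = 0.0014), Ifit2 (2.33 ± 0.57, adjusted p = 0.0021), Oasl2 (2.27 ± 0.46, adjusted p = 0.00034) and Mx1 (2.2 ± 0.71, adjusted p = 0.017). All 3 IFIT genes, both ISG15 system genes and 3 of 5 OAS genes were among the 19. The call of Ifi44 was lost when any single array of the 4 groups was left out except Mreg replicate 1, with adjusted p between 0.053 and 0.12. Lgals3bp, the smallest of the 19 at 0.8 (adjusted p = 0.049), lost its call with the replicate block (adjusted p = 0.052), after quantile normalization (0.58, adjusted p = 0.17) and without any single array of the 4 groups. Isg20 (-0.39, 95% interval from -1.09 to 0.31), Rsad2 (-0.26), Bst2 (0.13) and Trim25 (-0.2) did not pass. The other probes of Rsad2 gave 1.31 and 1.42 for this difference, so its result depends on the probe. These responses start from the IFN-γ groups, which also enter the comparison of cultures with IFN-γ: the genes named as lower there begin lower, and in Mreg with LPS the values of Ifit3, Usp18 and Isg15 overlap or lie close to those of M1.

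**Figure D5:**
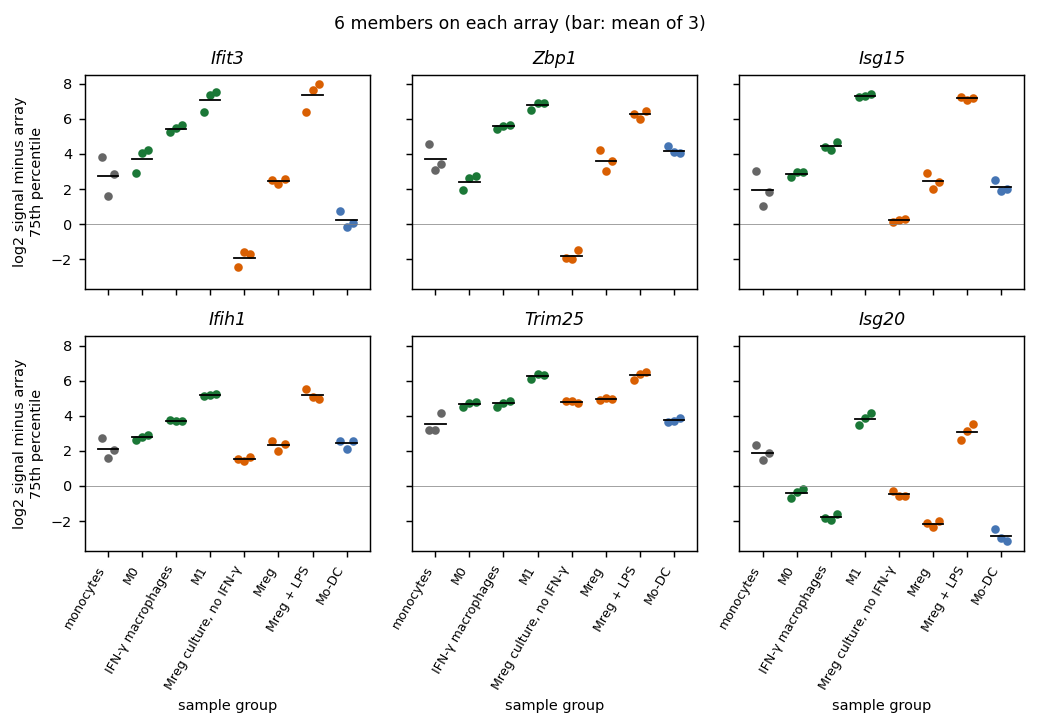
Log2 level of Ifit3, Zbp1, Isg15, Ifih1, Trim25 and Isg20 on each array (points) of 8 groups, with 3 arrays a group. Ifit3, Zbp1 and Isg15 climb from Mreg without IFN-γ over Mreg to Mreg with LPS, Trim25 moves only with LPS among these steps, and Isg20 drops with IFN-γ before its rise with LPS.

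Isg20 thus followed a course of its own. IFN-γ lowered it 3.21-fold in the Mreg culture (from -0.29, -0.55 and -0.55 to -2.11, -2.36 and -1.97; log2 -1.68 ± 0.24 SE, adjusted p = 9e-06) and 2.64-fold in the M-CSF culture (from -0.66, -0.36 and -0.15; log2 -1.4 ± 0.24 SE, adjusted p = 6.9e-05), and in neither case did the groups overlap. It was the member that IL-4 lowered, from the M0 values to -1.14, -1.47 and -1.24 (log2 -0.89 ± 0.24 SE, adjusted p = 0.014), where 12.6% of all genes passed (5.8% as lower) and 32 members did not. Of all IL-4 calls 53.9% were higher, and 43.6% when arrays were scaled to their medians. It was also the member that immunoglobulin coating under IFN-γ raised, to -1.16, -0.67 and -0.71 in M2b (log2 0.94 ± 0.24 SE, adjusted p = 0.023), where 3.96% of all genes passed (2.18% as higher) and 32 members did not. The IL-4 call was lost without M0 replicate 3 (adjusted p = 0.078) or M2a replicate 2 (adjusted p = 0.059). The coating call was lost without replicate 1 or 2 of the IFN-γ macrophages or replicate 2 or 3 of M2b (adjusted p between 0.1 and 0.13).

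Dexamethasone changed 2 of 33 members, where 20.7% of all genes passed, 9.94% as higher and 10.7% as lower. Ifi204 was 1.55-fold higher (log2 0.63 ± 0.2 SE, adjusted p = 0.028) and Ifit2 2.21-fold lower (log2 -1.15 ± 0.4 SE, adjusted p = 0.044). Ifit2 read 1, 1.84 and 2.31 in M0 and -0.18, 0.64 and 1.25 in M2c, so the groups overlapped. Both calls were lost without M0 replicate 2 or M2c replicate 2, that of Ifi204 also without M0 replicate 1 or M2c replicate 3, and that of Ifit2 also without M0 replicate 3 or M2c replicate 1. The medians of the members were 0 for IL-4 and -0.1 for dexamethasone. No slide held both M0 and M2c.

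Mo-DC and M-CSF macrophages both received IFN-γ, and 30 of 33 members were lower in Mo-DC, where 47.6% of all genes passed and 25.2% passed as lower. Higher genes made up 47.1% of all calls, and 23.9% when arrays were scaled to their medians. The median member was 2.59-fold lower (log2 -1.38, against -0.042 over all genes), and within the 3 slides that hold both groups the medians were -1.18, -1.55 and -1.56. Ifit3 read 0.74, -0.17 and 0.07 in Mo-DC against 5.23, 5.47 and 5.63 in IFN-γ macrophages, 37.6-fold lower without overlap (log2 -5.23 ± 0.53 SE, adjusted p = 7.6e-09). Oas3 was 13.2-fold lower (log2 -3.72 ± 0.34 SE, adjusted p = 8.6e-10; -1.89 on its other probe), Ifit1 12.4-fold, Ifi44 8.82-fold, Oas2 6.93-fold and Rtp4 6.27-fold. Bst2, Ddx58 and Usp18 did not pass, at log2 -0.41, -0.7 and -1.05. Dendritic cell markers summed to 12.2 to 31.1 in Mo-DC and 0.596 to 0.751 in the macrophages, chiefly through Ccr7, while Cd209a was well above background on none of the arrays of Mo-DC. Other marker lists moved too: all 6 measured T and NK cell markers were higher in Mo-DC (median log2 difference 2.43, summed level 0.549 to 0.866 against 0.206 to 0.259), as were 3 of 4 erythroid markers, and 4 of 7 macrophage markers were lower and 2 higher. The part of these cells in the differences was not tested.

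Growth from unsorted cells changed 2 members relative to Mreg from sorted monocytes, where 12.1% of all genes passed, 6.68% as higher and 5.37% as lower. Of all calls 55.4% were higher, and 25.1% when arrays were scaled to their medians. Of the members, Sp100 was 1.44-fold higher (adjusted p = 0.04) and Trim25 1.52-fold lower (adjusted p = 0.04). The other probe of Trim25 gave a log2 difference of 0.41 against -0.61 on the probe used, so its direction depends on the probe. The unsorted arrays differed among themselves, with Ifit3 at 2.88, 1.24 and 3.71 and with medians over the members of -0.06, -0.17 and 0.83 within the 3 slides. Unsorted replicate 2 also read higher for genes of mast cells, basophils and neutrophils: Mcpt8 was at -1.12 there and at -7.58 and -7.6 on the others, Cpa3 at -1.2 against -7.75 and -5.54, and Mpo at 0.5 against -4.26 and -4.13. The part of such cells was not tested. The median over members was 0.16, and it was -0.13 without replicate 3 of unsorted Mreg. Both calls were lost without unsorted replicate 2, and without replicate 2 or 3 of Mreg. Without unsorted replicate 3 the call of Sp100 was lost too, as was that of Trim25 without replicate 1 of either group.

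Against the starting monocytes both unstimulated cultures moved, in opposite directions for many members. In M0, 22 members were higher and 4 lower than in Monocytes, with 63.4% of all genes passing (30.2% higher and 33.2% lower) and a member median of 0.93 log2 units. Higher genes made up 47.7% of all calls, and 64.4% when arrays were scaled to their medians. Ifi44 read 0.33, -3.51 and -4 in Monocytes, and its 17.2-fold higher level in M0 became 44.1-fold without monocyte replicate 1 and 9.84-fold without replicate 3. Lgals3bp, a secreted glycoprotein, was 6.92-fold higher (log2 2.79 ± 0.22 SE, adjusted p = 1.7e-11). Isg20 was 4.91-fold, Zbp1 2.4-fold, Sp100 2.37-fold and Ifi203 1.68-fold lower. Ifi203 lost its call without replicate 1 of either group (log2 -0.62, adjusted p = 0.061). Other probes of Ifi203 read from -1.5 to 0.93 in this comparison, so its direction depends on the probe. In Mreg without IFN-γ, 25 members were lower and 4 higher, with 67.3% of all genes passing (33.9% higher and 33.3% lower) and a median of -1.63. Of those calls 50.5% were higher, and 63.4% when arrays were scaled to their medians. Zbp1 read 4.55, 3.09 and 3.44 in Monocytes and was 45-fold lower in Mreg without IFN-γ (log2 -5.49 ± 0.31 SE, adjusted p = 1.4e-14). Ifit3 was 25.7-fold, Ifi203 16-fold and Ifit1 12.1-fold lower (Ifit1 18.7-fold without monocyte replicate 2), while Lgals3bp (2.54-fold), Trim25 (2.42-fold), Bst2 (1.69-fold) and Parp14 (1.4-fold) were higher. The call of Parp14 was lost without Monocytes replicate 2 (log2 0.18) and without each array of Mreg without IFN-γ. Another probe of Parp14 passed as lower (log2 -1.68), so its direction depends on the probe.

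The monocyte arrays varied, as Ifit3 shows with 3.82, 1.62 and 2.87, and the median over members for M0 against Monocytes was -0.22, 1.68 and 0.97 within the 3 slides and 0.46 without monocyte replicate 2. The Monocytes group also carried RNA of neutrophil genes, with a summed level of 3220 to 3960 for 7 measured markers against at most 24 in any other group. All 7 neutrophil markers were well above background there. Erythroid markers summed to 39.4 to 80.4 and mast cell and basophil markers to 11.4 to 16. Adar read -1.89 on monocyte replicate 1 and 1.55 and 2 on the others. The part of these other cells in the differences from Monocytes was not tested.

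Genes that act upstream of the members were read from lists of the pathway. The interferon β gene Ifnb1 was well above background on all 3 arrays of M1 (0.25, 0.54 and 0.64) and of Mreg with LPS (0.15, -0.69 and -0.44), and on none of M0 or Mreg without IFN-γ. Without LPS it read -4.78, -7.45 and -7.85 in Mreg and -4.05, -5.45 and -5.06 in IFN-γ macrophages, with only 1 and 2 of the 3 arrays above background. LPS raised it in both (adjusted p = 5.6e-11 and 2.3e-09), and under LPS the cultures differed by log2 -0.81 (adjusted p = 0.2). With IFN-γ alone Ifnb1 passed as lower in Mreg than in IFN-γ macrophages, by log2 -1.84, and by -2.8 without Mreg replicate 1. Of 9 ligand genes 5 were measured; in unstimulated cultures none of these 5 passed between Mreg and M-CSF cultures by limma. IFN-γ raised 1 of the 5, Ifnb1, in the M-CSF culture and none in the Mreg culture.

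Transcription factors followed the members in part. Of 8 listed, 7 rose with IFN-γ in the Mreg culture and 5 in the M-CSF culture. In Mreg without IFN-γ 5 were lower than in M0. The shares of all genes passing in these directions were 9.51%, 11.1% and 13.7%. Irf7, which amplifies type I interferon production and is itself a target of it, read 3.96, 4.6 and 4.75 in M0 against 0.18, 1.58 and 0.84, 11.9-fold lower without overlap (log2 -3.57 ± 0.45 SE, adjusted p = 8.2e-07). It was 5.57-fold lower with IFN-γ and 2.17-fold lower with LPS. In the same unstimulated comparison Stat2 was 4.39-fold, Irf1 2.9-fold and Irf9 2.58-fold lower. Irf9 changed sides with LPS, where it was 1.71-fold higher in the Mreg culture.

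Genes that respond preferentially to IFN-γ gave a second scale. All 10 rose in both cultures, among them Gbp2, a GTPase of host defence, by 1230-fold in the Mreg culture and 304-fold in the M-CSF culture. Gbp2 read 9.04, 8.62 and 8.57 in Mreg and 9.01, 9.07 and 8.85 in IFN-γ macrophages, which did not pass (log2 -0.23, adjusted p = 0.48). Of the 10, 8 were lower in Mreg without IFN-γ than in M0 and 4 were lower when both had IFN-γ. With LPS 8 were lower, and the median of the 10 was -1.45. The shares of all genes passing as lower were 13.7%, 14% and 25.1%. Cxcl9, a T cell attracting chemokine, read 0.22, -2.94 and -2.89 in Mreg and 3.46, 2.36 and 3 in IFN-γ macrophages, 28-fold lower, and 57.8-fold without Mreg replicate 1.

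Receptors differed modestly. Ifnar1 did not pass between cultures without stimulus (log2 0.01, 95% interval from -0.29 to 0.31) or with IFN-γ, and with LPS it was 2.05-fold lower in the Mreg culture. Ifnar2 was 1.49-fold higher in the Mreg culture without stimulus, 1.26-fold with IFN-γ and 2.92-fold with LPS. Socs1, the feedback inhibitor of interferon receptors, rose 37.9-fold with IFN-γ in the Mreg culture and 70.7-fold in the M-CSF culture. LPS then lowered it 2.12-fold in the Mreg culture and raised it 2.41-fold in the M-CSF culture, and it was 10.2-fold lower in Mreg with LPS than in M1 (log2 -3.35 ± 0.37 SE, adjusted p = 1.7e-08).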

How the data were processed

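The arrays were Agilent one-colour arrays scanned and quantified in Feature Extraction 10.5.1.1, and the processed intensity of each spot is background-subtracted per the file headers. The deposited series table holds log2 values of the same arrays; it correlated with the scanner values at 0.997 or more on each array and was used as an alternative. From the intensities, non-uniform and outlier spots were left out, repeat spots were averaged, and log2 of the signal minus the 75th percentile of its array was taken. A probe entered when 3 or more of the 36 arrays read it well above background (26460 probes), and the brightest probe stood for a gene. No spot was saturated, and between 50 and 57.5% of probes were well above background on an array; 3 arrays a group limit the precision.

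One limma model (3.58.1, R 4.3.3) with 1 mean for each of 12 groups was fitted to all 36 arrays and 17593 genes, with 24 residual degrees of freedom before moderation. Two-sided p-values were adjusted by Benjamini-Hochberg over all genes within a comparison, and 0.05 was the threshold. Folds against a group with no array above background are bounds ("at least"), set from the dimmest signal above background on each array. The model was tested on simulated data. Any member past the test could be named, with full statistics for at most the 6 largest rises and falls of a comparison. The members and the lists of pathway and marker genes were chosen with earlier results of these data known. One gene of the pathway lists is not reported here by name.

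Arrays carry series numbers 1 to 3, with 4 arrays a slide and series 1 scanned on another day than series 2 and 3. Same-numbered samples deviated together with correlations over 0.1 for every pair in IFN-γ in the Mreg culture (0.34 to 0.56) and the M-CSF culture (0.19 to 0.28), LPS in the Mreg culture (0.3 to 0.43) and the M-CSF culture (0.11 to 0.24), and for IL-4, dexamethasone and immunoglobulin coating; in the other comparisons at least 1 pair did not. Alternatives were normexp background correction with offset 50, quantile normalization, median scaling, a filter on dim probes that asks for 18 arrays or none, averaging the probes of a gene, the series table, scan day 1 only, only the groups compared, replicate block, slide as fixed or random block, and leaving out each array. Tables and plots used Python 3.11.15, pandas 2.3.3 and matplotlib 3.10.9.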

Additional observations from a re-analysis of the deposited data

Results flagged for a closer look

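The results listed here stood out because the response to the same stimulus differed between the Mreg culture and the M-CSF culture in a test of the difference itself (limma, adjusted over all genes). Values are log2 units, the response in the Mreg culture minus that in the M-CSF culture.

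For IFN-γ the difference was 2.6 for Rtp4, 2.32 for Ifit2, 2.29 for Zbp1, 1.94 for Ifi203 and 1.71 for Ifi205.

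For LPS added to IFN-γ, the IFIT genes differed by 3.24 for Ifit3, 2.33 for Ifit2 and 2.05 for Ifit1. The ISG15 system differed by 2.67 for Usp18 and 1.85 for Isg15. Among OAS genes Oasl2 differed by 2.27, Oas2 by 2.13 and Oas1a by 1.61, and Mx1 by 2.2. The sensors Zbp1, Ifih1 and Ddx58 differed by 1.41, 1.39 and 1.36. Trim30 differed by 1.13, Ifi204 by 0.99 and Ifi205 by 0.94. The remaining differences were 2.75 for Ifi44, 1.91 for Rtp4, 1.64 for Sp100 and 0.8 for Lgals3bp, whose call was lost with the replicate block (adjusted p = 0.052) and without any single array of the 4 groups. All of these were larger responses in the Mreg culture, and the lower starting level of these genes in that culture is part of the same contrast.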

How the results depend on the processing

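Over 289 called member differences and all settings tried, 4977 of 5346 values had the same direction and call, 368 had the same direction without passing, and 1 reversed: Parp14 in Mreg without IFN-γ against Monocytes was -0.28 with the mean of all probes (adjusted p = 0.27). Slide as a fixed block was one of these settings. It cannot adjust a comparison whose groups share no slide, such as M0 and Mreg without IFN-γ, so holding under it is no support there. With that limit, all 30 calls between the unstimulated cultures and all 31 calls of LPS in the Mreg culture held in every setting. So did 22 of 28 for IFN-γ in the Mreg culture, 12 of 18 for IFN-γ in the M-CSF culture, 23 of 27 between cultures with IFN-γ, 25 of 31 for LPS in the M-CSF culture, 11 of 19 for the difference of LPS responses, 25 of 30 for Mo-DC and 0 of 5 for the difference of IFN-γ responses.

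For that last difference the count was 1 with normexp, 3 with the mean of probes, 8 with the replicate block, 1 on scan day 1 and 12 in the fit of only its groups, and 3 to 6 when single arrays were left out. The replicate block changed no other count by more than 1.5 times. For IL-4 it was 2 with normexp and 0 to 1 without single arrays. For dexamethasone it was 1 with normexp, quantile normalization, no filter, the series table, only its groups, or slide as a random block, 0 with the mean of probes or on scan day 1 (2 members at an unadjusted p under 0.05 in each, limma), and 0 to 1 without single arrays. For immunoglobulin coating it was 2 with slide as a fixed block and 0 to 1 without single arrays. For unsorted Mreg it was 1 with median scaling, 0 with normexp, no filter or slide as a fixed block (7 members each at an unadjusted p under 0.05), 0 with the mean of probes (4) or only its groups (3), and 0 to 2 without single arrays. For M0 against Monocytes it was 15 with only its groups. The cause was not tested. The arrays of the second scan day give 1 array a group and no test, so that setting was not run.

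Median scaling moved the median of all genes to -0.4 for Mo-DC, 0.25 for M0 and 0.32 for Mreg without IFN-γ against Monocytes, and 0.22 for LPS in the Mreg culture; the member medians there were -1.73, 1.26, -1.32 and 2.9. Quantile normalization lowered the member medians for LPS from 2.85 to 2.3 in the Mreg culture and from 1.56 to 1.27 in the M-CSF culture. For the difference of LPS responses the member median went from 0.99 to 0.74. The medians of all genes there were -0.02, -0.01 and 0.02. Depth limits mainly Ifi44, whose probe was not above background in Mreg without IFN-γ.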

Other observations

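Sensors and adaptors that lead to interferon production also differed between the cultures. Of 13 listed genes 8 were lower in Mreg without IFN-γ than in M0, where 13.7% of all genes passed as lower. With LPS 5 were higher and 5 lower in the Mreg culture (median log2 difference 0.2). Among all genes 29.4% passed as higher and 25.1% as lower there. Tlr3, the receptor for double-stranded RNA, was 2.66-fold lower without stimulus, 3.59-fold with IFN-γ and 2.89-fold with LPS. Myd88, the adaptor of most Toll-like receptors, was 2.21-fold, 2.09-fold and 3.03-fold lower, and Sting1, the adaptor for cytosolic DNA, 3.12-fold, 2.63-fold and 1.57-fold lower. LPS lowered Tlr4, its own receptor, 8.7-fold in the Mreg culture and 1.84-fold in the M-CSF culture, a difference between responses of -2.24 log2 units (SE 0.28, limma adjusted p = 7.5e-07). It raised Tlr7, a receptor for single-stranded RNA, 9.12-fold and 1.74-fold, a difference of 2.39 log2 units (SE 0.31, adjusted p = 1.2e-06).

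The array annotation places the probe of Isg15 on chromosome 17 in build mm8, whereas RefSeq places the gene on chromosome 4, so the probe was taken by its symbol and transcript accession.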
